A study of Caenorhabditis elegans with 2 samples.

Results

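The 8 genes described here code for transcription factors that set organ identity in the nematode Caenorhabditis elegans. They were taken as a fixed list of names, chosen with earlier results of these data known, from the 19973 nuclear protein-coding genes of the annotation. They comprise elt-1, elt-3 and lin-26 (epidermis), elt-2 and elt-7 (intestine), pha-4 and ceh-22 (pharynx) and hlh-1 (body wall muscle). Binding of JUN-1, a Jun-type AP-1 factor of the worm, was mapped in L1 larvae, the first larval stage, by chromatin immunoprecipitation with sequencing (ChIP-seq) of whole animals. The labels give 1 group of 2 biological replicates of strain OP234, with the genotype unc-119(ed3) III; wgIs234, an insertion that carries eGFP-jun-1. Animals of both replicates share the unc-119 mutation and the tagged transgene, the sexes were pooled, and the age is given as unknown. Whole animals were used, so the cells in which a site was bound are not known, and few cells bound strongly cannot be told apart from many cells bound weakly.

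These factors act in cascades that turn an early embryonic fate into a lasting organ. GATA factors bind sites with the core GATA, and in the intestine ELT-2 keeps its own gene active after the early endoderm factors have gone. PHA-4 is the FoxA-type factor that selects pharyngeal genes, CEH-22 an NK-2 homeodomain protein that activates pharyngeal muscle genes, and HLH-1 the worm relative of MyoD. Jun proteins pair with other basic leucine zipper proteins, and AP-1 dimers are known from many animals as factors that answer stress and growth signals.

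A locus was taken from 5000 bp upstream of the annotated gene start to the gene end, and a peak was counted there when its summit, the position of its highest signal, lay inside. The 4 deposited lists on the ce11 assembly were read. They hold 2305 peaks that passed a threshold on the irreproducible discovery rate (IDR), a procedure that retains peaks with like ranks in replicates, with 19646 pooled peaks called on both replicates together, 28101 peaks of replicate 1 and 30000 of replicate 2. The pooled and replicate lists hold background peaks as well. The signal of a peak is the authors' own value, and each list is on its own scale. The 2305 IDR-thresholded peaks were the 2305 strongest pooled peaks by signal, so a site's rank is the same in both lists down to that point. Read depth is unknown, and 1 control was shared by the replicates.

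Among the 8 organ identity genes, elt-2 and pha-4 had IDR-thresholded summits in their loci and the other 6 had none. The share of 2 in 8 (25%) lies beside 18.6% of all protein-coding genes, and beside 21.0% of the 7376 genes whose loci were as long as those of the members (7202 to 12266 bp). Promoter windows, from 1000 bp upstream to 200 bp downstream of the gene start, held an IDR-thresholded summit in the same 2 genes, against 8.42% of all genes. Numbers this small do not set the list apart from other genes. The loci held 3 IDR-thresholded summits, all upstream of the gene start, with a median signal of 30.8 against 44.7 over the whole list.

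The letters under the sites named below come from the RefSeq copy of WBcel235, the assembly that ce11 names. Each shows the plus strand, which is also the coding strand of elt-2 and pha-4, in a window of 200 bp centred on the pooled summit. Of these sites only the elt-2 near site and the pha-4 near site passed the IDR threshold. The elt-2 middle site and the pha-4 distal and intron sites did not. The IDR-thresholded elt-2 site 3485 bp upstream has a UTR in its window, which is not shown. The elt-2 near site is chrX:10480689-10480888 and the elt-2 middle site chrX:10479143-10479342. The pha-4 near site is chrV:20752751-20752950, the pha-4 distal site chrV:20749145-20749344 and the pha-4 intron site chrV:20753798-20753997. Capitals mark the GATA element TGATAA or its reverse complement TTATCA, and the element CTGCGTCTC.
elt-2 near site: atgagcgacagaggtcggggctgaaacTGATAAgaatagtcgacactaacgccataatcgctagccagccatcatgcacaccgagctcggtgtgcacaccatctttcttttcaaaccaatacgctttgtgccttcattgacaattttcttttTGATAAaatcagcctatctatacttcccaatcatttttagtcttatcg
elt-2 middle site: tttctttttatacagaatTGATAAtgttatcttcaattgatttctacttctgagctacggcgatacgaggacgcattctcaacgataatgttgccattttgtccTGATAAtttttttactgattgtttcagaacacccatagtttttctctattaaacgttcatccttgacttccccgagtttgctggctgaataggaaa
pha-4 near site: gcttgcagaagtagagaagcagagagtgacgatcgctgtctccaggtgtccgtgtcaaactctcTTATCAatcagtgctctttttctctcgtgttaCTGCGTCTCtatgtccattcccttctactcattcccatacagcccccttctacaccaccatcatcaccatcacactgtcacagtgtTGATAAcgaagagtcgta
pha-4 distal site: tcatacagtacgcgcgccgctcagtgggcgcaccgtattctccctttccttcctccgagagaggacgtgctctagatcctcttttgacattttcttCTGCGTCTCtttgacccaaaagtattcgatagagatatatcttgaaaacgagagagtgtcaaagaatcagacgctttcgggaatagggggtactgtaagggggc
pha-4 intron site: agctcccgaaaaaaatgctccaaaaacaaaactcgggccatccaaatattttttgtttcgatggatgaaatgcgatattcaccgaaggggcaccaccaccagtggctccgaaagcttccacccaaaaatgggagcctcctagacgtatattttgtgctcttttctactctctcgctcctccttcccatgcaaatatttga
The elt-2 windows shown here hold 2 GATA elements each and the pha-4 near site 2, while the pha-4 intron site holds no marked element. In both the near and the distal pha-4 window CTGCGTCTC starts at base 97 of 200, and the pooled summit base lies within it. At the distal site the replicate 1 summit lay 26 bp from the pooled one, outside the element.

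The intestinal gene elt-2 carried the strongest site of the list. Its gene (WBGene00001250, X:10481240-10483441) has 1 annotated transcript, and its near summit lay 451 bp upstream of the start, between genes (peak X:10480617-10480960). The signal there was 63.7, rank 639 of the 2305 IDR-thresholded peaks. Replicate 1 gave 31.9 (rank 839 of 28101) and replicate 2 gave 29.6 (rank 567 of 30000), and the replicate summits lay 3 and 6 bp from the pooled one. Both replicates thus placed this site within the strongest 2.99% and 1.89% of their lists, and it was the highest summit of all 8 loci in each.

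A farther elt-2 site passed the IDR threshold with lower values. Its summit was 3485 bp upstream (peak X:10477583-10477926), in the 3' UTR of the neighbour C39B10.7, whose start, 882 bp away, is nearer than that of elt-2. The signal was 30.8 (rank 2049), with 14.8 in replicate 1 (rank 2842) and 14.6 in replicate 2 (rank 1845). Replicate 2 also had a summit of 10.8 that lay 3282 bp upstream of elt-2, with no replicate 1 summit within 100 bp of the pooled one.

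Between these sites lay one on which the replicates differed. At 1997 bp upstream, between genes, the pooled signal was 24.4 (rank 2859 of 19646, outside the IDR-thresholded list). Replicate 1 had 20.1 there (rank 1836), its second elt-2 summit in strength, and replicate 2 had 3.42 (rank 26430). The ratio of replicate 1 to replicate 2 was 5.87, the highest of the 13 pooled member sites matched in both replicates. Over all 7649 pooled summits matched in both, the median ratio was 1.28 and the 95th percentile 2.95. Ratios beyond 5 in either direction occurred at 0.614% of them. Replicate 2 also had a summit of 4.90 at 2210 bp upstream, and its peak overlaps the replicate 1 peak. Inside the elt-2 gene itself the lists held 1 summit, 475 bp downstream of the start in replicate 2, with a signal of 4.10.

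elt-7, which codes for the GATA factor that works beside ELT-2 in intestinal cells, had 1 summit in each of the pooled and replicate lists and no IDR-thresholded one. It lay 89 bp upstream of the start of the gene (WBGene00015981, V:4770670-4773086), and its pooled signal was 13.6 (rank 7106). Replicate 1 gave 7.77 (rank 8352) and replicate 2 gave 6.17 (rank 9303). The site is low in both replicates but at the same place, with summits 28 bp and 0 bp from the pooled one. The nearest IDR-thresholded summit was 32734 bp upstream.

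**Figure D1:**
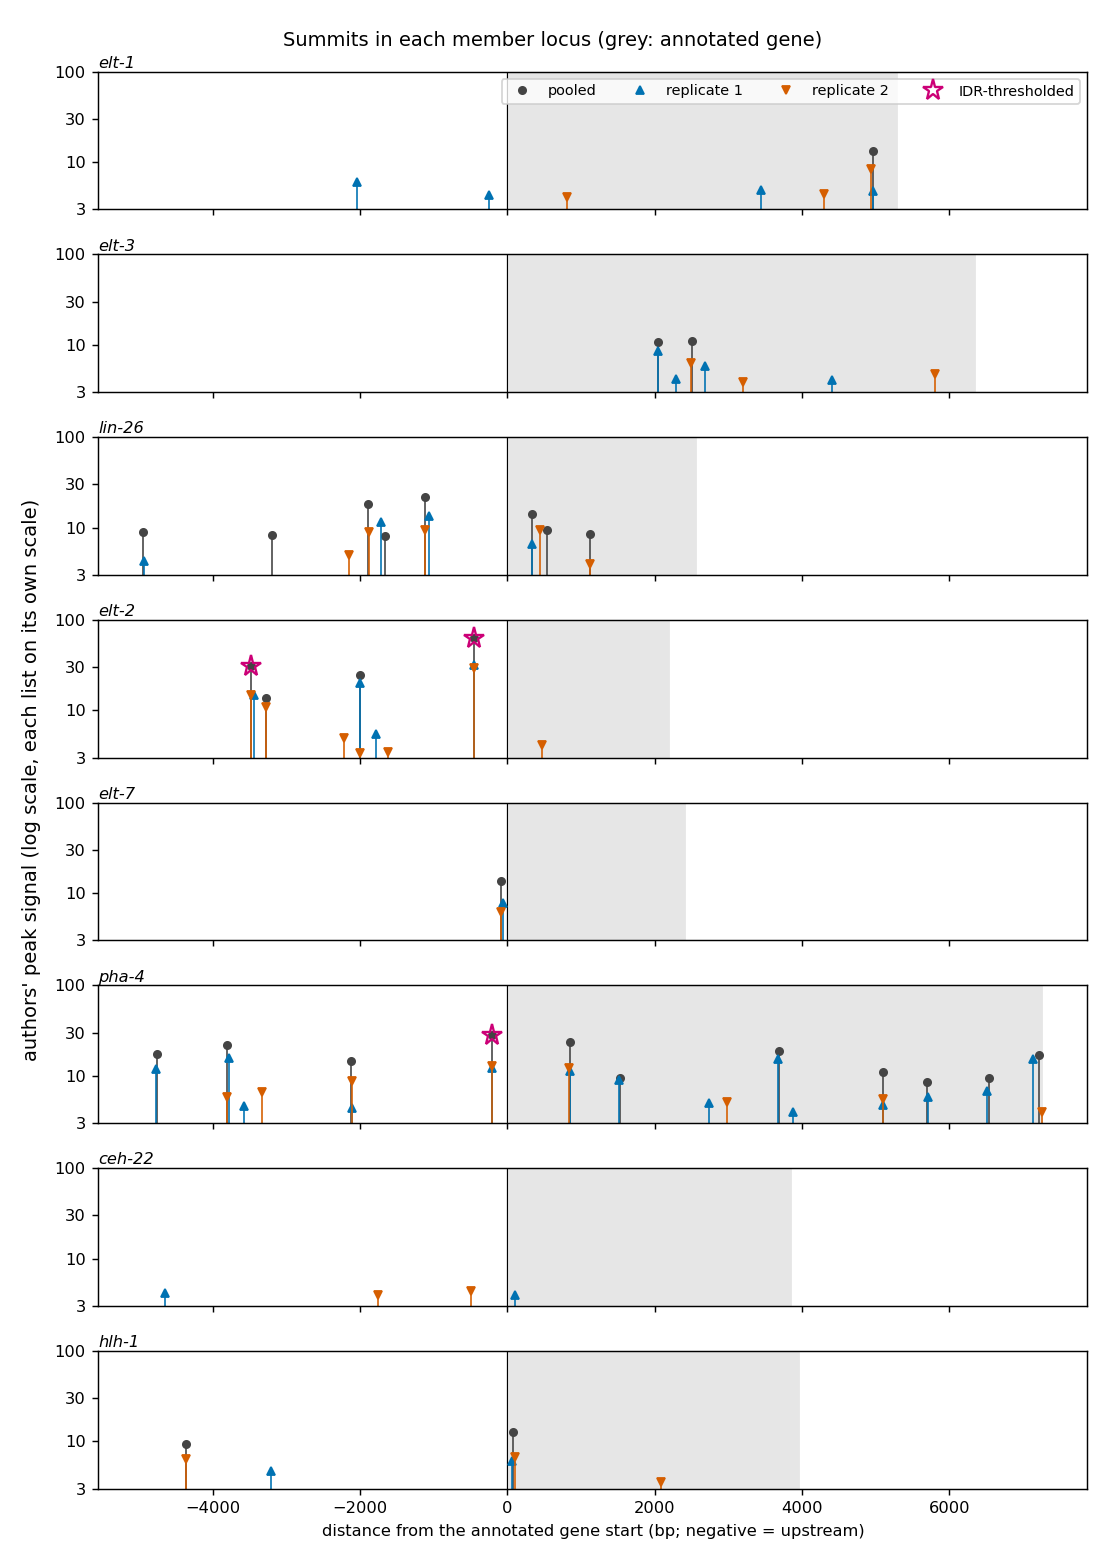
Summits in the 8 loci, with the distance from the annotated gene start in bp on the x axis and the authors' signal on a log y axis, each list on its own scale. Circles are pooled summits, triangles those of the replicates, stars the 3 IDR-thresholded summits, and grey the annotated gene; stars appear at elt-2 and pha-4, and ceh-22 has no pooled summit.

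The pharyngeal selector gene pha-4 (WBGene00004013, V:20753052-20760317) had the most summits of the 8 loci in the pooled and replicate lists. The pooled list held 11, that of replicate 1 held 14 and that of replicate 2 held 8 in 12266 bp. The count was lower in 99.9% of genes with loci as long as those of the members for the pooled list, in 99.9% for replicate 1 and in 97.9% for replicate 2. pha-4 has the longest locus of the 8 and so sets the upper limit of that length range, which means that these shares compare it with loci of equal or shorter length. Its summits spread along the upstream sequence and the gene.

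The pha-4 near site, 201 bp upstream of the start (peak V:20752679-20753022, between genes), was the only one to pass the IDR threshold. Its signal of 28.5 was rank 2296 of 2305, close to the end of that list. Replicate 1 had 12.4 (rank 3751) and replicate 2 had 12.8 (rank 2296). In replicate 1 stronger summits of the same locus lay 3781 bp upstream (15.6), 3675 bp downstream (15.2) and 7143 bp downstream (15.2), whereas in replicate 2 the near site was the strongest.

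Several other pha-4 sites came close in strength. The intron site 846 bp downstream of the start had a pooled signal of 23.7, with 11.3 in replicate 1 and 12.4 in replicate 2. At the distal site 3807 bp upstream the pooled signal was 22.1, and the replicates gave 15.6 (rank 2600) and 5.81 (rank 10514). An intronic summit 3694 bp downstream had 18.9 in the pooled list and 15.2 in replicate 1, with no replicate 2 summit within 100 bp. An internal transcript of pha-4 begins 3858 bp downstream of the gene start, a short way beyond this summit. At the 3' end, 7225 bp downstream and in the 3' UTR, the values were 16.8 in the pooled list, 15.2 in replicate 1 and 4.03 in replicate 2. Of the 11 pooled pha-4 summits, 6 had a summit of each replicate within 100 bp, 5 had one of replicate 1 alone and 0 had one of replicate 2 alone.

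ceh-22, whose product works with PHA-4 on pharyngeal muscle genes, was the member with the least signal. Its locus (gene WBGene00000445, V:10671918-10675769) held no pooled summit, as did 22.8% of genes with loci of this length. Replicate 1 had summits of 4.16 (4650 bp upstream) and 3.94 (109 bp downstream), and replicate 2 had 4.44 (488 bp upstream) and 3.94 (1760 bp upstream). No summit of one replicate lay near one of the other, and all 4 values were below the median of their list (5.86 in replicate 1 and 4.85 in replicate 2).

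**Figure D2:**
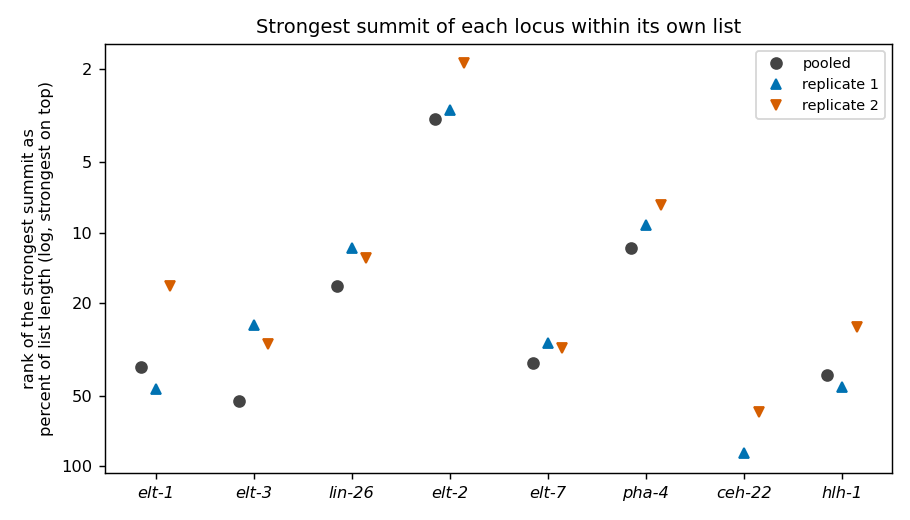
Rank of the strongest summit of each locus as a percent of the length of its own list, on a log y axis with the strongest on top, for the pooled list (circles) and the replicates (triangles). elt-2 stands highest in all 3 lists, pha-4 and lin-26 follow, and ceh-22 has no pooled summit.

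Of the epidermal genes, lin-26 had the strongest summit in each of the pooled and replicate lists but none past the IDR threshold. It had the most summits of the 3 in the pooled list and replicate 2, while in replicate 1 each of the 3 genes had 4. LIN-26 is a zinc finger protein that keeps epidermal cells epithelial. The upstream part of the locus of its gene (WBGene00003012, II:7682198-7684764) overlaps the lin-26-related gene lir-1. The pooled list held 8 summits in 7567 bp, while replicate 1 held 4 and replicate 2 held 5. Some of the pooled lin-26 peaks overlap one another, so their summits are not all separate sites. The count was lower in 99.2% of genes with loci as long as those of the members for the pooled list, but in 72.9% for replicate 1 and 82.9% for replicate 2. The strongest pooled summit, 1117 bp upstream in a coding exon of lir-1, had 21.9 (rank 3331). The replicates gave 13.5 (rank 3273) and 9.43 (rank 3888) at that site. It was the lin-26 site on which both replicates came together, since of the other 7 pooled summits 3 were matched in replicate 1 alone, 3 in replicate 2 alone and 1 in neither.

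The replicates placed the other lin-26 signal at slightly different positions. Replicate 1 had 11.4 at 1717 bp upstream, and replicate 2 had 8.89 at 1876 bp upstream. Within the gene, replicate 1 had 6.54 at 335 bp downstream and replicate 2 had 9.50 at 448 bp downstream, which was the highest lin-26 value in that replicate. These gaps exceed the 100 bp used to call summits the same site, although the peaks, 344 and 356 bp wide, overlap.

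elt-1, the GATA factor gene that specifies epidermal fate in the embryo, had 1 pooled summit. It lay 4959 bp downstream of the start, in the 3' UTR of the gene (WBGene00001249, IV:9614995-9620280), with 13.3 in the pooled list, 4.81 in replicate 1 and 8.28 in replicate 2. The strongest elt-1 summit of replicate 1 was 6.09 (rank 13127), at 2036 bp upstream, where the pooled and replicate 2 lists held none. Near the elt-1 start the lists gave 4.38 at 251 bp upstream in replicate 1 and 4.07 at 815 bp downstream in replicate 2, far apart. elt-3, a GATA factor gene that acts later in epidermal cells, had pooled summits of 10.7 and 11.1 in introns 2048 and 2501 bp downstream of its start (WBGene00001251, X:13934874-13941216). Within 100 bp the first had a replicate 1 summit alone (8.58) and the second a replicate 2 summit alone (6.29). Replicate 1 also had summits of 5.89 at 2680 bp and 4.22 at 2284 bp downstream, whose peaks overlap that replicate 2 peak. No list held a summit in the 5000 bp upstream of elt-3.

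hlh-1, the body wall muscle factor gene, had a weak site at its start. The gene (WBGene00001948, II:4518574-4522528) had a pooled summit 77 bp downstream, in the 5' UTR, with 12.7 (rank 8007). Replicate 1 gave 6.15 (rank 12918) and replicate 2 gave 6.80 (rank 7619), and the summits lay 17 and 24 bp from the pooled one. A further hlh-1 summit of 9.30, in a coding exon of the neighbour cyp-23A1 4358 bp upstream, had a replicate 2 match alone (6.43). The nearest IDR-thresholded summit was 141713 bp away, the farthest of the 8 genes, against 14315 bp for elt-3, 19666 bp for lin-26, 22013 bp for ceh-22 and 33029 bp for elt-1.

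Ordered by the strongest pooled summit, the genes ran elt-2 (63.7), pha-4 (28.5), lin-26 (21.9), elt-7 (13.6), elt-1 (13.3), hlh-1 (12.7), elt-3 (11.1) and ceh-22 with none. elt-2, pha-4 and lin-26 led in that order in each replicate, and ceh-22 was last in each. The order of elt-7, elt-1, hlh-1 and elt-3 changed between the replicates, so these neighbours are not separated beyond their spread. The strongest elt-2 summit was above that of 93.9% of all protein-coding genes in the pooled list, 92.04% in replicate 1 and 94.8% in replicate 2, a gene with no summit counting as lower. For pha-4 the shares were 81.5%, 79.4% and 81.9%, and for lin-26 75.3%, 75.6% and 73.9%. Those of elt-3, elt-7, elt-1 and hlh-1 lay between 42.5% and 68.2% over the 3 lists, around the middle of all genes.

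**Figure D3:**
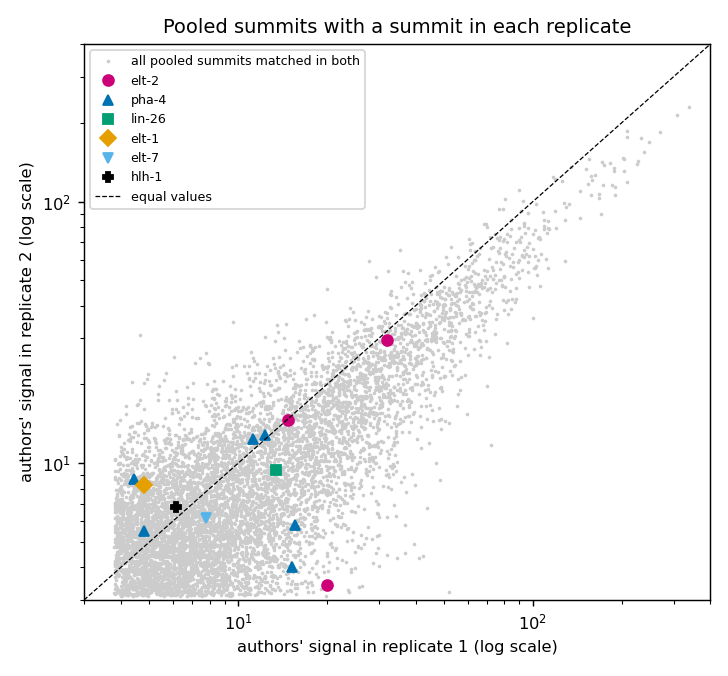
Authors' signal in replicate 1 (x axis) and replicate 2 (y axis), both log scales, at pooled summits with a summit of each replicate within 100 bp: grey points are all 7649, coloured symbols the 13 in the loci of 6 members. The elt-2 near site lies highest among the coloured symbols, and the elt-2 middle site lies far to the side of replicate 1.

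In total the 8 loci held 29 pooled summits, 35 of replicate 1 and 32 of replicate 2. Summit density was 3.92 per 10 kb against a genome average of 1.96 in the pooled list, 4.74 against 2.80 in replicate 1 and 4.33 against 2.99 in replicate 2. lin-26, pha-4 and elt-2 held 23 of the 29 pooled summits. The other 5 loci lay at 0 to 2.23 pooled summits per 10 kb, close to or below the average. Across the members 13 of 29 pooled summits (44.8%) had a summit of each replicate within 100 bp, beside 38.9% of all pooled summits. For the pooled list 7 of 8 loci held a summit, beside 69.3% of all genes, and for each replicate list 8 of 8 did, beside 80.3% in replicate 1 and 84.5% in replicate 2. Among genes with loci as long as those of the members the shares were 77.2% for the pooled list, 86.3% for replicate 1 and 90.1% for replicate 2, so a summit in those longer lists says little by itself. Within the 2305 strongest peaks of each replicate, elt-2 alone of the 8 had a locus summit in replicate 1, beside 18.7% of all genes, and elt-2 and pha-4 had one in replicate 2, beside 18.2%.

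**Figure D4:**
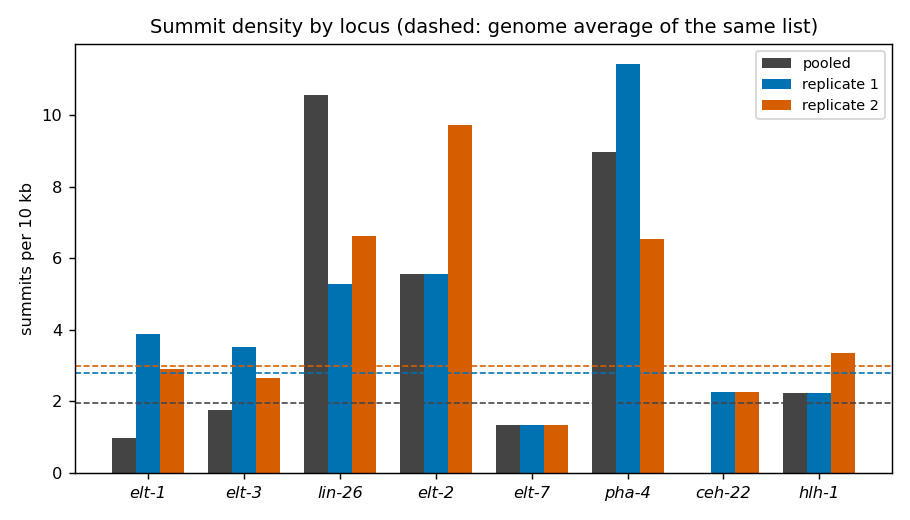
Summits per 10 kb of locus (y axis) for each gene, with bars for the pooled list and each replicate and dashed lines for the genome average of the same list. lin-26, elt-2 and pha-4 stand above the averages in all 3 lists, and elt-7 and ceh-22 below them.

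Neither the AP-1 element (TGACTCA or TGAGTCA) nor the CRE element (TGACGTCA) occurred in the 200 bp window of any of the 29 pooled summits, on either strand. These elements were found in 3.28% and 1.53% of all pooled windows, so few were to be met among 29. The GATA element TGATAA was in 10 of the 29 windows (34.5%) beside 23.6% of all pooled windows, and in each of the 4 elt-2 windows. All 3 IDR-thresholded member windows, 2 of them at elt-2, held it, beside 20.3% of that list. G and C made up 26.5% to 42.5% of the elt-2 windows and 47.5% of the pha-4 near window. The median over IDR-thresholded windows was 43.5%, and whether base composition bears on these matches was not tested. CTGCGTCTC was in 2 of 29, both at pha-4 and shown above, beside 4.25% of all pooled windows. In the IDR-thresholded list, which holds the pha-4 near site, 15.3% of windows had it. The forkhead element TGTTTAC and the repeat GAGAGAGA each occurred in 1 window, that of the elt-2 site 3485 bp upstream. CACGTG was in 1 window, at the intronic pha-4 site 3694 bp downstream, and the wider E-box CANNTG, which includes CACGTG and is the kind of site HLH-1 binds, was in 16 windows (55.2%, beside 57.0% of all). A match records letters in the window and does not show that a factor binds there.

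Of the other factors for the same tissues, and of neuronal ones, none had an IDR-thresholded summit in the promoter window of its annotated gene start. Other transcript starts of these genes were not searched. The lists were written with earlier results of these data known. Promoter windows held an IDR-thresholded summit in 0 of 9 epidermal, 0 of 7 endoderm and 0 of 8 pharyngeal factors. They held one in 0 of 8 muscle and 0 of 19 neuron identity factors, beside 8.42% of all genes. In the whole locus the counts were 1, 2, 2, 1 and 1. These genes, named after their values were seen, were blmp-1 (36.2), skn-1 (71.1) and end-3 (51.9), ceh-24 (52.1) and hlh-6 (50.4), mef-2 (88.5) and the neuronal egl-44 (32.9), each given with its strongest signal. skn-1 and end-3 code for factors that act before elt-2 in the endoderm. Compared with the 18.6% of all genes, counts this small do not set any of the lists apart.

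Genes that the organs use, and not only their regulators, were listed too. Of 15 intestinal effector genes 6 had an IDR-thresholded summit in the locus and 3 in the promoter window, namely act-5, an intestinal actin (32.4), and the cathepsin-type protease genes cpr-1 (30.7) and cpr-6 (29.4). Among 24 body wall muscle genes 5 had one in the locus and 3 in the promoter window, the actin genes act-2 (88.4) and act-4 (41.2) and the myosin chaperone gene unc-45 (32.6). The loci of act-1, act-2 and act-3 share their summits, so these 3 genes are not separate cases. Over all protein-coding genes the shares were 18.6% for the locus and 8.42% for the promoter window, and no test was made of these lists. In the epidermal list 1 of 13 genes had a locus summit, the junction gene dlg-1 (51.04, named after its value was seen), and in the pharyngeal list 0 of 12 did.

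**Figure D5:**
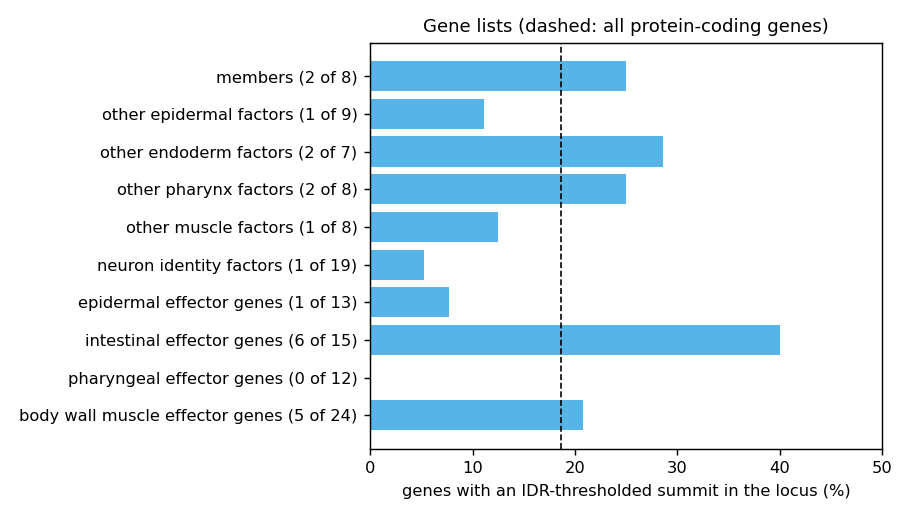
Percent of genes of each list with an IDR-thresholded summit in the locus (x axis), with the counts in the labels and a dashed line at 18.6%, the share of all protein-coding genes. Intestinal effector genes lie highest at 6 of 15 and pharyngeal effector genes lowest at 0 of 12, on small counts and with no test.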

How the data were processed

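JUN-1 ChIP-seq peak lists of 2 biological replicates, in 1 group, were used. Per the deposited provenance notes, peaks and background were called on each replicate and on both together against 1 shared control, and the IDR-thresholded list was derived from these. The deposited lists give the authors' signal per peak, whose scaling no source used here states, and a −log10 q-value per peak, which was equal (3.73) in all IDR-thresholded peaks and was not used for ranking. For the aligner, the peak caller and the IDR cutoff, names and values were not given in the sources used here. No read counts were analysed here, so no interval for counting error is given.

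Lists on ce11 were used and those on ce10 not. Genes came from Ensembl release 115 on WBcel235, 19973 of them nuclear and protein-coding, and all peaks lay within the RefSeq chromosomes of that assembly. Coordinates are 1-based. Peaks were ranked by signal, and summits were assigned to loci and promoter windows with pandas 2.3.3. Each pooled summit was matched to the nearest summit of each replicate within 100 bp. Motifs were sought on both strands of 200 bp windows. Counting and search were tested on planted summits and motifs. With 1 group and no second condition no statistical test was made, and percentages over all genes or peaks stand in its place.

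All 8 members are named, with each IDR-thresholded summit. In the other lists, genes with an IDR-thresholded summit in the promoter window are named, up to 4 a list, and others only where stated. Of 16 listed intestinal effector genes 15 matched an annotated name. The members and lists were chosen with earlier results of these data known. Alternatives varied the locus, the promoter window, the overlap rule, the assignment, the peak threshold and the replicate.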

Additional observations from a re-analysis of the deposited data

How the results depend on the processing

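That elt-2 and pha-4 were the 2 genes with an IDR-thresholded summit held for loci from 2 kb or 10 kb upstream, for any part of the peak and for assignment to the nearest start, and their promoter calls held for windows of 500 bp upstream to 100 bp downstream, of 2000 bp upstream, and for any transcript start. Among the 1152 strongest peaks only elt-2 remained, so the genes with a locus summit, the summits and the genes with a promoter summit each numbered 1, and the median signal was 63.7. With 1 replicate left out, and the 2305 strongest peaks of the other in place of the IDR-thresholded list, 1 to 2 genes had a locus summit, 1 to 2 a promoter summit, and the loci held 2 to 3 summits with a median of 14.6 to 26.0 on the scale of that replicate. Without replicate 2, pha-4 had none, and the elt-2 summits were those 454 and 2001 bp upstream. The median was 46.1 for loci from 2 kb upstream and for nearest starts only. The read depth is unknown, so how it limits the weak sites cannot be given. No paired analysis was possible because the labels give 1 group.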

Other observations

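The elt-2 near site, chosen for this remark after its letters were seen, holds a perfect inverted repeat of 22 bases, tgcacaccgagctcggtgtgca, centred 15 bases from the summit. A perfect inverted repeat at least that long occurred in 2 of the 2305 IDR-thresholded windows of 200 bp and in 22 of the 19646 pooled ones. The longest such repeat in the other 28 member windows had 12 bases, at elt-3. No value here bears on whether the repeat has a part in the signal at elt-2.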
